A study of Mus musculus with 8 samples.

Results

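Gene expression was compared between 2 chemically induced pluripotent stem cell (CiPSC) lines whose labels give the mouse small intestinal epithelium as their origin (IEC-CiPSC lines 10 and 13) and R1 embryonic stem cells (ESC). Levels are FPKM, fragments scaled to transcript length and to the mapped fragments of the library. Each library listed 39009 entries, and 17011 of them reached FPKM 1 in at least 1 of the 8 libraries of the series and were fitted. Pseudogenes and genes on X or Y were then left out. That left 11826 genes with FPKM 1 or more in at least 1 of the 3 libraries compared, of which 11402 were coding. The genes described below are the 9975 coding genes with both lines on the same side of ESC, 4977 with both higher and 4998 with both lower. The remaining 1427 coding genes had the lines on either side of ESC, or a line equal to it. The choice of genes fixes the side, so these counts are a description. At the FPKM limit, Mapk15 (0.549 and 1.00 in lines 10 and 13, 0.484 in ESC) was just inside and Sh3bp2 (0.895, 0.949 and 0.997 in the same libraries) just outside.

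A CiPSC line is a pluripotent line obtained from body cells with small-molecule compounds, which the labels do not name. The strain labels read C57BL/6J-Tg(GOFGFP)16Imeg/RbrcxICR for line 10 and C57BL/6J-Tg(GOFGFP)17Imeg/RbrcxICR for line 13, against 129X1 x 129S1 for ESC. Strain, origin of the line and culture history thus differ together between the groups and cannot be told apart. Beside them stand 3 NSC-CiPSC lines, made from neural stem cells of the same kind of transgenic stock, and 1 library each of the source cells, IEC and NSC, both from E13.5 embryos. The markers of the library labelled IEC do not follow its epithelial name. Fibroblast markers summed to FPKM 9412 and smooth muscle markers to 6065 there, against 534 for intestinal epithelium markers. Markers of other lineages were high too. Extraembryonic endoderm markers summed to 10605 in that library, liver and pancreas markers to 6856 and leukocyte markers to 4093. Each CiPSC library is 1 line, no label says whether lines came from separate animals, and ESC is a single library. P-values therefore measure only the spread between CiPSC lines of 1 origin, and ESC is assumed to vary like them.

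The FPKM sums were 744454 and 744977 in lines 10 and 13 against 694605 in ESC, and depth relative to ESC, read from the width of the intervals in the files, was 1.04 in both lines. Mitochondrial transcripts held 6.03% and 6.87% of the sum in the lines and 4.88% in ESC. Across the 11402 coding genes, Pearson's r on log2(FPKM + 1) was 0.992 between the lines, 0.944 between line 10 and ESC and 0.952 between line 13 and ESC. This is a description over genes, which are not replicates. The median distance of a member from ESC was 0.37 on the log2 scale, and that between the lines 0.11. Members were chosen with both lines on the same side of ESC, which favours this order, so it is a description.

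Mouse embryonic stem cells keep a naive pluripotent state through a network of transcription factors that includes Pou5f1, Sox2 and Nanog, supported by LIF signalling and held in check by FGF-ERK signalling. A few cells in such cultures pass through a state that shares transcripts with the 2-cell embryo, among them the Zscan4 genes. Replication-dependent histone genes sit in clusters of near-identical copies, are transcribed in S phase and mostly give mRNAs without a poly(A) tail. Chemical reprogramming drives body cells towards this naive state without added transgenic factors.

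The threshold for a call was an adjusted p under 0.05 (limma, Benjamini-Hochberg over all 17011 genes fitted) and at least 2-fold on log2(FPKM + 1), a scale that understates the change of low genes. Among the members 138 were called higher in IEC-CiPSC than in ESC and 146 lower. Over all genes fitted, 277 (1.63%) were called higher and 295 (1.73%) lower. Over the coding genes compared the shares were 1.21% higher and 1.28% lower, and no coding gene called lay outside the members. An unadjusted p under 0.05 was reached by 24.3% of the coding genes compared, a share that serves as background for the lists below. The called genes had a median difference of 1.69 where higher and -1.52 where lower, while the median over all coding genes compared was -0.0007. Of the 138 called higher, 58 were under FPKM 1 in ESC, and of the 146 called lower, 53 were under FPKM 1 in both lines. By size alone, without a test, 441 coding genes were at least 2-fold higher in both lines (3.87%) and 371 at least 2-fold lower (3.25%). The counts of calls depend on the lines that set the spread. They were 13 higher and 20 lower without IEC-CiPSC line 10, 14 and 21 without line 13, 303 and 245 without NSC-CiPSC line 1, 67 and 79 without NSC-CiPSC line 2, and 29 and 35 without NSC-CiPSC line 3.

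**Figure D1:**
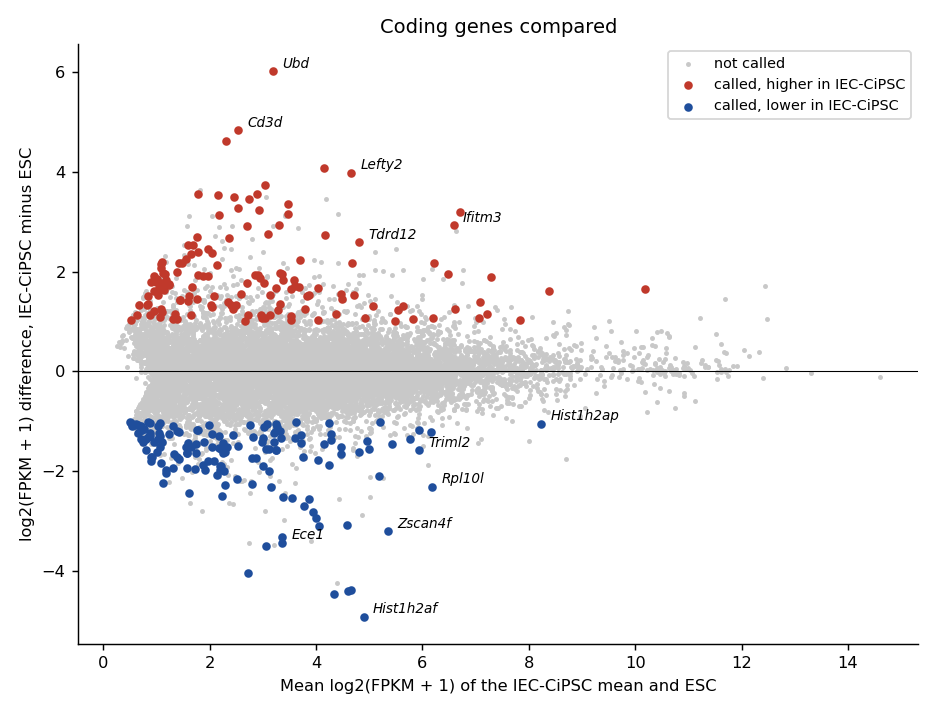
Each point is 1 of the 11402 coding genes compared. The x axis is the mean of the IEC-CiPSC and ESC levels on log2(FPKM + 1), the y axis the IEC-CiPSC minus ESC difference on that scale. Red points are the 138 genes called higher and blue points the 146 called lower. Ubd lies highest, at 6.01, and Hist1h2af lowest, at -4.91.

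The 12 largest rises among called genes with FPKM of at least 10 were headed by Ubd, Cd3d, Cd3g and H2-Eb1. Ubd, which encodes the ubiquitin-like modifier FAT10 (chr17:37193892-37196095, mm10), had FPKM 71.8 and 72.6 in lines 10 and 13 against 0.136 in ESC, a level whose interval implies 1 fragment. The difference was 6.01 ± 0.60 (SE; limma adjusted p = 0.0230). Cd3d and Cd3g encode the delta and gamma chains of the CD3 complex of the T-cell receptor and lie head to head on chromosome 9. Cd3d (chr9:44981793-44987052) had 30.03 and 29.87 in the lines and 0.0876 in ESC, again from 1 fragment, a difference of 4.83 ± 0.18 (SE; adjusted p = 0.00186). Cd3g (chr9:44969572-44980431) had 24.82 and 22.03 in the lines and was listed at 0 in ESC (adjusted p = 0.00828). For both genes the lower bound of the interval in each line lay above the upper bound in ESC.

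The neighbouring Cd3e, the epsilon chain of the same complex, was also called, at 8.70 and 7.92 in the lines and 1.11 in ESC (difference 2.14 ± 0.15 SE, adjusted p = 0.0111). The 3 genes span chr9:44969572-45009590. In NSC-CiPSC lines Cd3d ranged from 0 to 0.289 and Cd3g from 0 to 0.473, and both were listed at 0 in the IEC library. The leukocyte markers gave no call beside them. Their summed level was 104 and 96.7 in the lines and 115 in ESC, none of the 3 coding markers compared was called or reached an unadjusted p under 0.05, and Ptprc, the pan-leukocyte phosphatase CD45, was listed at 0 in lines 10 and 13 and in ESC. The stretches upstream of Cd3d and Cd3g are shown because these neighbours moved together. They are the 250 bases before the RefSeq start in GRCm38.p6, chr9:44981536-44981785 on the plus strand for Cd3d and chr9:44980432-44980681 on the minus strand for Cd3g, written 5′ to 3′. Capitals mark matches, on either strand, to TATAAA, the TATA box core, or CCAAT, the CCAAT box, 2 motifs that do not overlap each other. Of 27025 RefSeq upstream windows of this length, 13% hold TATAAA and 34.5% hold CCAAT. Neither window holds either motif, so no letter is in capitals.
Cd3d: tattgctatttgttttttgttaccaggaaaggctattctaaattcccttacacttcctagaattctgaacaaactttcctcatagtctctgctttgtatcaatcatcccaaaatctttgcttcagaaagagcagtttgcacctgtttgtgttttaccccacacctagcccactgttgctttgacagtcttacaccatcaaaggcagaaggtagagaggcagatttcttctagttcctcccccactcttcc
Cd3g: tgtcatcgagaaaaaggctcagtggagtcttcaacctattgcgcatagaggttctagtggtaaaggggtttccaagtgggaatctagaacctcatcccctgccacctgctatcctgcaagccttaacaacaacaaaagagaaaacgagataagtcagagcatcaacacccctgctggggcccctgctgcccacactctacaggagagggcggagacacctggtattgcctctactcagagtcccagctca

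MHC class II genes formed another pair of neighbours, on chromosome 17. H2-Eb1, a class II beta chain (chr17:34305883-34316199), had 73.2 and 70.7 in the lines and 3.33 in ESC (difference 4.08 ± 0.34 SE, adjusted p = 0.0166). H2-Eb2, its neighbour, had 2.67 and 2.94 in the lines against 0.0972 in ESC and was called as well (1.79 ± 0.06 SE, adjusted p = 0.00166). H2-Ab1, a class II beta chain of the other isotype, had 12.8 and 10.1 in the lines and 1.27 in ESC and did not pass the test (2.45 ± 0.82 SE, adjusted p = 0.184). Of the antigen presentation and interferon list, 17 of 26 genes were compared and 2 were called, both higher, Ubd and Ifitm3. Of the 17, 4 reached FPKM 1 in the lines and not in ESC, so that the filter fixed their side. The median was 0.38 over the 17, 0.09 over the 13 that reached FPKM 1 on both sides and 0.24 over all 26. Ifitm3, an interferon-inducible membrane protein that restricts viral entry, had 255 and 275 in the lines against 33.9 in ESC, and the difference was 2.93 ± 0.11 (SE; adjusted p = 0.00204). The NSC-CiPSC lines, at 192 to 221 for Ifitm3, also lay above ESC. No class I gene was called, and H2-K1, a class I heavy chain, had 8.69 and 6.93 in the lines and 9.66 in ESC (adjusted p = 0.758). Cd74, the class II invariant chain, had 3.42 and 3.71 in the lines and 4.70 in ESC. Of the 17 genes, 15 thus did not pass the test. Without NSC-CiPSC line 3, or without either IEC-CiPSC line, 1 gene of the list was called, and 3 were without NSC-CiPSC line 1.

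Lefty2 and Lefty1, secreted inhibitors of Nodal, rose together. Lefty2 had 97.83 and 101.9 in the lines and 5.402 in ESC (difference 3.98 ± 0.32 SE, adjusted p = 0.0151). Lefty1 had 30.27 and 34.01 in the lines against 2.702 in ESC (3.16 ± 0.31 SE, adjusted p = 0.0230). Inhba, the activin A subunit, was the third called gene of the Nodal and activin list, at 2.13 and 3.40 in the lines and 0.0738 in ESC. It was 1 of 2 list genes that reached FPKM 1 in the lines and not in ESC, so that the filter fixed their side. Nodal itself had 25.7 and 29.5 in the lines and 32.2 in ESC (adjusted p = 0.434). Of the 17 list genes compared, 3 were called higher and none lower, with a median of 0.24. Without NSC-CiPSC line 2 or line 3 the count was 1, and without either IEC-CiPSC line 0.

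The other leading rises have varied roles. AA467197 had 26.8 and 31.5 in the lines against 1.27 in ESC. S100a4, a calcium-binding protein of motile mesenchymal cells, had 8.80 and 13.2 in the lines and was listed at 0 in ESC (adjusted p = 0.0342). Msln, the mesothelial surface protein mesothelin, had 27.2 and 21.9 against 1.17, and the kinase gene Stk33 had 13.4 and 14.9 against 0.311. In these 4 genes NSC-CiPSC lines stayed at or below 3.27. A different pattern held for Apoa2, an apolipoprotein (18.5 and 16.7 in the lines, 0.646 in ESC), Ube2l6, the ISG15-conjugating enzyme (21.7 and 20.5 against 1.03), and Pdpn, the membrane glycoprotein podoplanin (41.3 and 28.6 against 2.48). For these 3 the NSC-CiPSC lines lay at 20.02 to 32.14, 8.670 to 19.105 and 44.9 to 76.2, all above ESC.

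**Figure D2:**
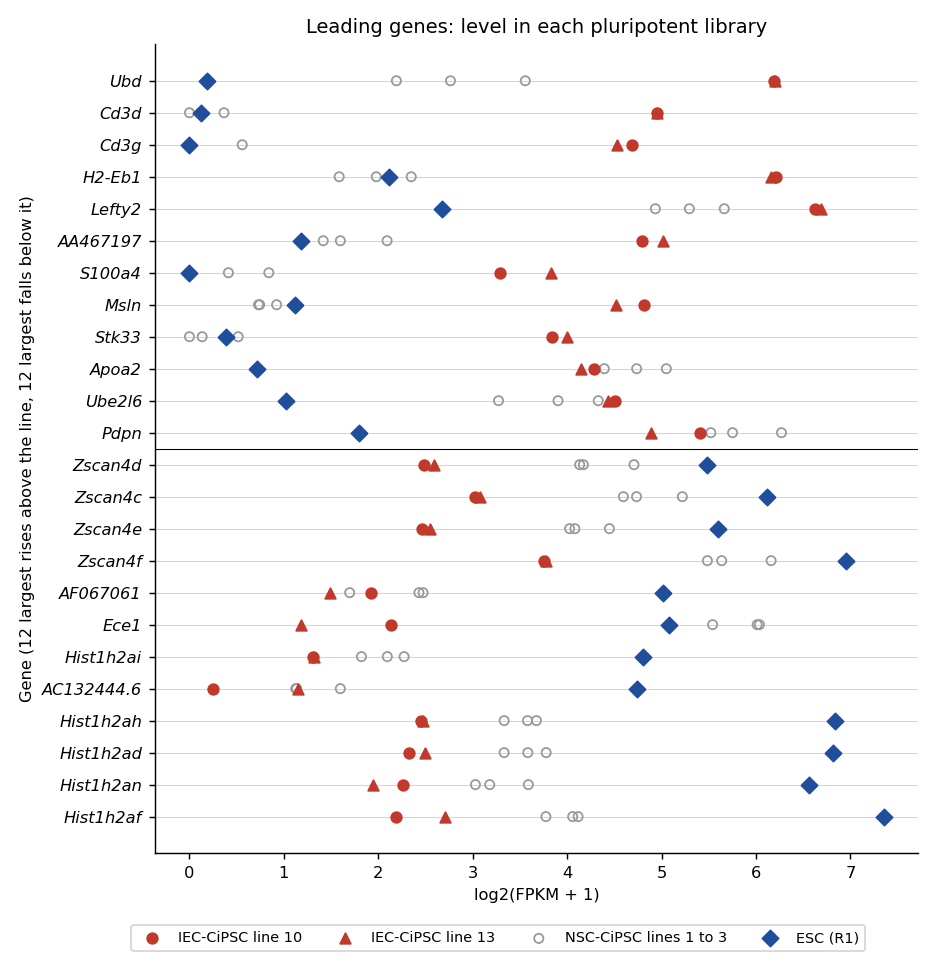
Rows are the 12 largest rises (above the line) and 12 largest falls (below it), and the x axis is log2(FPKM + 1). Red marks are the IEC-CiPSC lines, open circles the 3 NSC-CiPSC lines and blue diamonds ESC. In every row the choice of genes fixes both IEC-CiPSC lines on 1 side of ESC. For Ubd the lines lie at 71.8 and 72.6 FPKM against 0.136 in ESC.

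Histone H2A genes of the chromosome 13 clusters made up 5 of the 12 largest falls. They encode the core histone H2A, around which DNA is wrapped with H2B, H3 and H4. Hist1h2af (chr13:23533906-23534304) had 3.55 and 5.54 in the lines and 162 in ESC, and fell by 4.91 on the log2 scale (SE 0.29; adjusted p = 0.00707). Hist1h2ah had 4.49 and 4.56 in the lines against 113 in ESC, Hist1h2ad had 4.01 and 4.63 against 111, Hist1h2an had 3.79 and 2.85 against 93.3, and Hist1h2ai had 1.478 and 1.502 against 26.9. ESC stood above the mean of the lines by 18.1-fold (Hist1h2ai) to 35.8-fold (Hist1h2af) in FPKM. Of 15 H2A genes compared, 8 were called lower, the other 3 being Hist1h2ab, Hist1h2ae and Hist1h2ap. Hist1h2ag was called the other way, at 45.4 and 41.6 in the lines and 14.3 in ESC (difference 1.54 ± 0.22 SE, adjusted p = 0.0439). The 8 lower calls became 7 without NSC-CiPSC line 2, 6 without NSC-CiPSC line 3 and 3 without either IEC-CiPSC line, and the Hist1h2ag call was lost in each of these.

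H2A copies are near-identical in coding sequence, and the assignment of reads to single copies by the authors' processing is uncertain. A sum over the copies sets the split among them aside. Over the 15 genes it was 393 and 383 in the lines and 1206 in ESC, 3.11-fold higher in ESC, against 268 to 307 in the NSC-CiPSC lines. Other histone families had smaller gaps and no call, with unadjusted p under 0.05 in 5 of 13 H2B, 0 of 4 H3 and 2 of 10 H4 genes. H2B genes summed to 32.9 and 27.7 in the lines and 56.9 in ESC, H3 genes to 5.30 and 5.46 against 7.06, and H4 genes to 23.2 and 28.5 against 47.4. Histone genes held 0.0646% and 0.0627% of the FPKM sum in the lines and 0.214% in ESC. How far poly(A) selection bears on these levels was not tested.

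**Figure D3:**
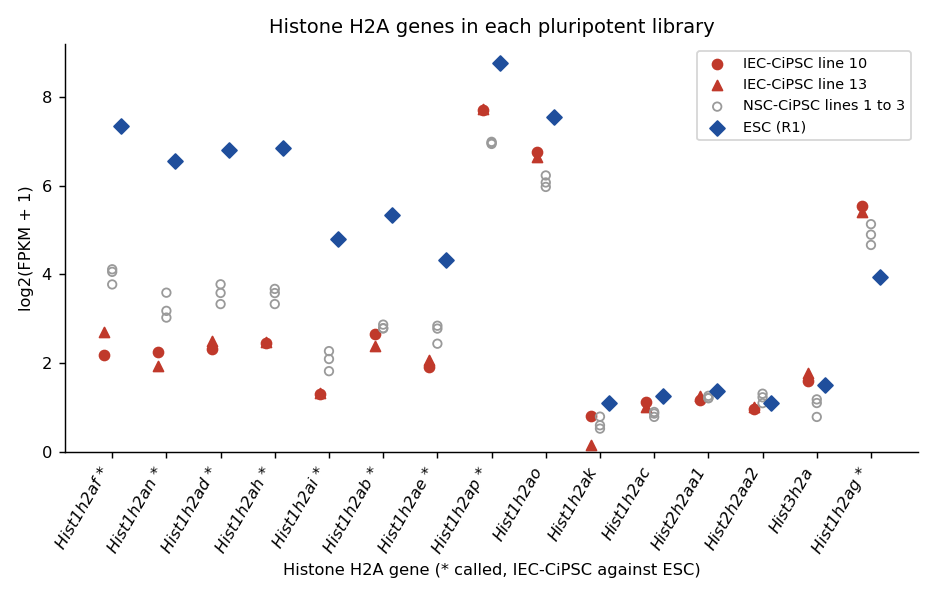
Each column is 1 of the 15 histone H2A genes compared, ordered by difference, and the y axis is log2(FPKM + 1). Red marks are IEC-CiPSC lines, open circles NSC-CiPSC lines, blue diamonds ESC, and an asterisk marks a called gene. The 8 called falls stand at the left and Hist1h2ag, the called rise, at the far right.

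The upstream stretches of 3 H2A genes that fell and of the one that rose are shown for comparison, each as the 250 bases before the RefSeq start (GRCm38.p6), 5′ to 3′, with TATAAA and CCAAT matches on either strand in capitals. They are chr13:23533625-23533874 on the plus strand for Hist1h2af, and on the minus strand chr13:22035644-22035893 for Hist1h2ah, chr13:21787249-21787498 for Hist1h2an and chr13:22042950-22043199 for Hist1h2ag.
Hist1h2af: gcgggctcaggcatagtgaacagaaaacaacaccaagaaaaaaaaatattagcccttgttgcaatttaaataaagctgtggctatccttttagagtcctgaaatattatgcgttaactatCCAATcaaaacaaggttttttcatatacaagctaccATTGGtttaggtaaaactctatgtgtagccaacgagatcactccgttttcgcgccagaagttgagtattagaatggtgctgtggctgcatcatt
Hist1h2ah: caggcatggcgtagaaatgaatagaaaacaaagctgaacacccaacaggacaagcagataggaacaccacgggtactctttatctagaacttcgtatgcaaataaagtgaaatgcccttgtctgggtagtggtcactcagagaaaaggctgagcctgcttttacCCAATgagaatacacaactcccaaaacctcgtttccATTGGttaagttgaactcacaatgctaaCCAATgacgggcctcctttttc
Hist1h2an: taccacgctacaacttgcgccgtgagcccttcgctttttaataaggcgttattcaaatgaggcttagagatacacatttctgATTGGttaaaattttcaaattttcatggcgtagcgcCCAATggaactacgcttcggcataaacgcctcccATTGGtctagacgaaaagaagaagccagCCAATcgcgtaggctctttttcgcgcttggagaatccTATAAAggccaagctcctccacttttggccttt
Hist1h2ag: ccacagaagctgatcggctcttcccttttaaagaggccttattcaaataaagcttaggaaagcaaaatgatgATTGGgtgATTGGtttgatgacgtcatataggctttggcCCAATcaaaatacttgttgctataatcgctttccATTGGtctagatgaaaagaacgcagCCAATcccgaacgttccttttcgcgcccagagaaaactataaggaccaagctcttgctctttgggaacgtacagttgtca
The windows hold 2 (Hist1h2af), 3 (Hist1h2ah), 4 (Hist1h2an) and 5 (Hist1h2ag) CCAAT matches, and Hist1h2an alone of these 4 holds TATAAA. Hist1h2ag shared 67.6% of its bases with Hist1h2an and 40.8% with Hist1h2ah in a global alignment.

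Zscan4 genes, zinc-finger genes of the 2-cell embryo and of telomere maintenance in stem cells, made up 4 of the 12 largest falls. Zscan4f (chr7:11397915-11402741) had 12.5 and 12.7 in the lines and 123 in ESC (difference -3.20 ± 0.31 SE, adjusted p = 0.0226). Zscan4e had 4.53 and 4.84 in the lines against 47.5 in ESC, Zscan4c had 7.14 and 7.43 against 68.3, Zscan4d had 4.58 and 5.03 against 43.6, and Zscan4b had 4.692 and 5.40 against 34.3. All 5 were called. Their copies are near-identical, so the split of reads between them is uncertain while their direction is shared. The NSC-CiPSC lines were intermediate, from 43.8 to 70.5 for Zscan4f. Of 20 genes on the 2-cell-like list 18 were matched and 14 compared. Of these, 4 reached FPKM 1 in ESC and not in the lines, so that the filter fixed their side. The other 10 reached it on both sides, and the 5 called genes are among them. The median was -1.20 over the 14 and -1.04 over the 18 matched. The list summed to 43.6 and 46.4 in the lines and 349 in ESC. Without NSC-CiPSC line 3, or without either IEC-CiPSC line, no gene of the list was called. In bulk RNA fewer cells in such a state and less RNA per cell cannot be told apart.

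Zscan4c and Zscan4f are shown upstream of their RefSeq starts to show how alike the copies are, at chr7:11005495-11005744 and chr7:11397665-11397914 (GRCm38.p6, plus strand, 5′ to 3′, capitals as above).
Zscan4c: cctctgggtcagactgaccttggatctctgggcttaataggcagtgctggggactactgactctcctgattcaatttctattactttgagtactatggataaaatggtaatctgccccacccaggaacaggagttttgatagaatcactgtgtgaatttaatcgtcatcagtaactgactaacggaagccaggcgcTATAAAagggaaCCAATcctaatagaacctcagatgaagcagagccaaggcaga
Zscan4f: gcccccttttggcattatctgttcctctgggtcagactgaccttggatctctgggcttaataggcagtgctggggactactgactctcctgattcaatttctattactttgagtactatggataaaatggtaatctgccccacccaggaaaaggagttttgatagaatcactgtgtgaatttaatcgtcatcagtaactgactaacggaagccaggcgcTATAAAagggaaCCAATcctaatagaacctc
Each window holds 1 TATAAA and 1 CCAAT, and 90.4% of bases matched between them in the alignment. Windows of Zscan4b and Zscan4f matched at 94.8% and those of Zscan4d and Zscan4f at 83.6%.

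Other leading falls were single genes. AF067061 had 2.79 and 1.82 in the lines and 31.3 in ESC, and AC132444.6, on the unplaced scaffold GL456221.1, had 0.187 and 1.23 against 25.7. Ece1, which encodes the enzyme that matures endothelin, had 3.38 and 1.27 in the lines, 32.9 in ESC and 45.6 to 64.6 in the NSC-CiPSC lines, but the interval in the ESC file ran from 0 to 81.5, so the ESC level is poorly fixed (adjusted p = 0.0427). Among germline genes, 21 were compared, with 2 called higher and 2 lower. Tdrd12, a piRNA pathway tudor protein, had 69.2 and 66.5 in the lines against 10.4 in ESC, and Piwil2, a PIWI protein of that pathway, had 14.1 and 13.9 against 3.40. Rpl10l, a testis copy of a ribosomal protein gene, had 33.3 and 30.2 in the lines and 162 in ESC, and the piRNA helicase gene Mov10l1 had 1.47 and 1.35 against 7.97. NSC-CiPSC lines had 27.9 to 46.9 for Rpl10l and 5.18 to 7.87 for Mov10l1. The list's median was -0.44. Without NSC-CiPSC line 3, or without either IEC-CiPSC line, no germline gene was called.

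Of the 30 genes on the pluripotency list none was called in either direction (limma), while 12 had an unadjusted p under 0.05. Without NSC-CiPSC line 1, 2 were called higher and 3 lower. Pou5f1 had 1173 and 1206 in the lines and 1041 in ESC (difference 0.19 ± 0.11 SE, adjusted p = 0.392). Sox2 had 238 and 227 against 201, Nanog 533 and 576 against 384, and Esrrb 153 and 169 against 185. Klf4 had 107 and 111 in the lines and 75.4 in ESC, and Tfcp2l1, a LIF-responsive factor, 99.5 and 102 against 59.5. A p that misses the threshold does not show equal levels. Zfp42, the zinc-finger gene known as Rex1, had 207 and 247 in the lines and 764 in ESC (-1.75 ± 0.34 SE, adjusted p = 0.0779). Dppa3, a maternal factor that guards DNA methylation, had 14.0 and 13.8 against 2.05 (2.29 ± 0.40 SE, adjusted p = 0.0652). NSC-CiPSC lines had 146 to 238 for Zfp42 and 17.9 to 34.4 for Dppa3. Gbx2 had 1.25 and 1.85 in the lines and 8.20 in ESC (adjusted p = 0.199). The list's median was -0.25. Its sum was 10292 and 10088 in the lines and 6971 in ESC, and its most abundant gene Dppa5a, with 5628 and 5271 against 1998, set that order. Without Dppa5a the sum was 4664 and 4817 in the lines and 4973 in ESC.

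Tdh, the threonine dehydrogenase of mouse stem cells, had 186 and 245 in the lines and 308 in ESC (adjusted p = 0.557). Tbx3, a naive-state T-box factor, had 38.6 and 41.7 in the lines and 56.5 in ESC (adjusted p = 0.346). Of 14 DNA methylation genes compared none was called and 5 had an unadjusted p under 0.05. In both lines 10 were below ESC and 2 above it, and the median was -0.37. Dnmt3a, a de novo methyltransferase, had 13.6 and 14.9 in the lines and 42.8 in ESC (adjusted p = 0.165), Dnmt3b had 25.3 and 31.5 against 50.4 (adjusted p = 0.423), and the cofactor gene Dnmt3l had 192 and 199 against 301 (adjusted p = 0.683). Tet2, a 5-methylcytosine oxidase, had 9.74 and 13.3 in the lines and 22.7 in ESC (adjusted p = 0.236).

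Of 17 FGF-ERK targets, genes that report ERK activity, none was called and 2 had an unadjusted p under 0.05. In both lines 11 were below ESC and 4 above it, and the median was -0.80. Spry4, a feedback inhibitor, had 1.52 and 2.06 in the lines and 29.9 in ESC (-3.48 ± 1.34 SE, adjusted p = 0.225), and Myc had 0.740 and 1.44 against 11.7 (adjusted p = 0.362). NSC-CiPSC lines ranged from 0.732 to 13.2 for Spry4, so the spread that sets the test was wide. Rarg, a retinoic acid receptor, had 7.98 and 12.1 in the lines and 78.2 in ESC, just short of the threshold (-2.87 ± 0.44 SE, adjusted p = 0.0527). Of the 14 retinoid pathway genes compared none was called and 5 had an unadjusted p under 0.05. Among BMP and Id genes, Id2, an inhibitor of bHLH factors, was the single call of 14, at 17.9 and 19.5 in the lines and 4.05 in ESC (1.96 ± 0.10 SE, adjusted p = 0.00480). Among Wnt genes Apcdd1, a membrane inhibitor of Wnt, was the single call of 16, at 7.65 and 7.12 against 2.32. Of the LIF and STAT3 genes none of 17 was called and 5 had an unadjusted p under 0.05. Pim1, a STAT3-induced kinase, had 93.8 and 90.4 in the lines against 39.4 in ESC (adjusted p = 0.0774).

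No gene of the hypoxia, glycolysis and cholesterol lists was called. The unadjusted p was under 0.05 in 2 of 16 hypoxia, 3 of 22 glycolysis and 8 of 17 cholesterol genes. Hypoxia response genes had a median of 1.06 over 16 genes, of which 12 were above and 4 below ESC in both lines. The median was 0.85 over the 15 that reached FPKM 1 on both sides. Ddit4, an mTORC1 inhibitor induced by hypoxia, had 245 and 196 in the lines and 52.6 in ESC (adjusted p = 0.476), and Adm, the peptide adrenomedullin, 5.84 and 3.91 against 0.250 (adjusted p = 0.471). NSC-CiPSC line 1 stood apart from NSC-CiPSC lines 2 and 3, at 23.5 against 234 and 150 for Ddit4. Glycolysis genes had a median of 0.67 over 22 genes, and Eno2, an enolase, had 12.8 and 16.5 in the lines against 2.71 in ESC. All 17 cholesterol synthesis genes compared had levels above ESC in both lines, with a median of 0.88, and none was called. Insig1, the sterol sensor partner, had 120 and 92.0 in the lines against 18.4 in ESC (adjusted p = 0.143). Without NSC-CiPSC line 1, 2 hypoxia, 2 glycolysis and 3 cholesterol genes were called, all higher. These medians stand beside -0.0007 over all coding genes compared.

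**Figure D4:**
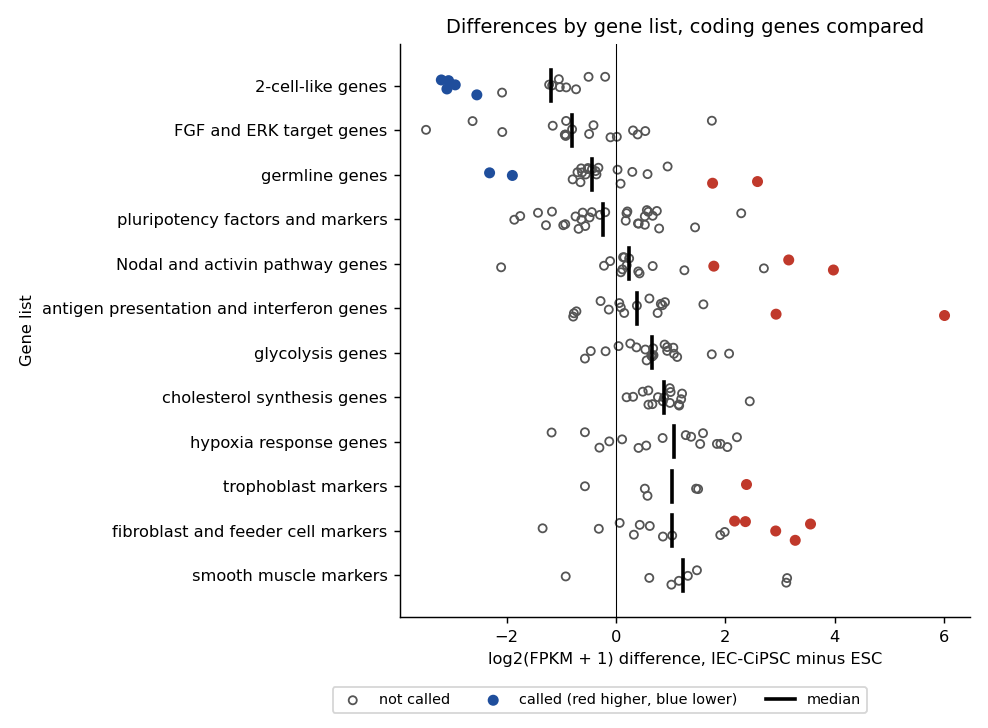
Rows are 12 of the gene lists, points their coding genes compared, and the x axis is the IEC-CiPSC minus ESC difference on log2(FPKM + 1). Filled points are called genes (red higher, blue lower) and bars are medians. The 2-cell-like list has its median at -1.20 and the smooth muscle list at 1.23.

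Single genes of other lists were called. Plagl1, an imprinted zinc-finger gene, had 52.6 and 52.0 in the lines and 20.4 in ESC (1.31 ± 0.14 SE, adjusted p = 0.0280), and Sgce, the imprinted epsilon-sarcoglycan gene, had 11.1 and 9.96 against 4.45. They were the 2 calls of 28 imprinted genes compared, and the count was 4 without NSC-CiPSC line 1, 1 without NSC-CiPSC line 3, and 0 without NSC-CiPSC line 2 or either IEC-CiPSC line. Of 18 p53 targets compared, 11 were below ESC in both lines and 4 above it, with a median of -0.41, and 9 had an unadjusted p under 0.05. Against that direction, Pmaip1, the pro-apoptotic p53 target Noxa, had 61.9 and 45.3 in the lines and 11.0 in ESC (2.17 ± 0.29 SE, adjusted p = 0.0392). Pmaip1 was the single call among the 18. This call, and the single calls of the Wnt, trophoblast and extraembryonic endoderm lists, were lost without NSC-CiPSC line 2, without NSC-CiPSC line 3 and without either IEC-CiPSC line. Neural markers gave 1 call in each direction. Olig1, an oligodendrocyte bHLH factor, had 5.63 and 5.27 in the lines against 0.347 in ESC, and Slc1a3, a glial glutamate transporter, had 1.96 and 1.80 against 6.08. Olig1 reached FPKM 1 in the lines and not in ESC, so that the filter fixed its side. NSC-CiPSC lines had 5.02 to 5.27 for Olig1 and 5.55 to 6.87 for Slc1a3. Without either IEC-CiPSC line neither was called. None of 24 Polycomb genes passed both limits, and 3 had an unadjusted p under 0.05. Aebp2, a PRC2 cofactor, had 25.9 and 27.8 in the lines and 50.5 in ESC, under 2-fold (adjusted p = 0.0229).

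The remaining lists gave no call in either direction. The genes with an unadjusted p under 0.05 were 2 of 10 genes of the primed epiblast and germ layers, 3 of 4 metallothioneins, 6 of 18 respiratory chain genes, 7 of 18 serine, glycine and threonine metabolism genes, 4 of 17 G1 cyclins and CDK inhibitors, 3 of 14 immediate early and stress genes and 8 of 17 epithelial genes. Otx2, a primed-state homeobox factor, had 5.55 and 3.89 in the lines and 10.7 in ESC (adjusted p = 0.0750). Cdkn1a, the CDK inhibitor p21, had 107 and 102 against 37.5 (adjusted p = 0.136), and Gadd45b, a stress-induced gene, had 89.0 and 69.0 against 14.0 (adjusted p = 0.174). Cldn4, a tight junction claudin, had 102 and 83.8 in the lines and 36.7 in ESC (adjusted p = 0.0732). Phgdh, the first enzyme of serine synthesis, had 129 and 134 against 69.6 (adjusted p = 0.196).

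Markers of other cell types were checked as whole lists. Of 20 fibroblast and feeder cell markers 15 were compared, and 5 were called, all higher. Of the 15, 9 reached FPKM 1 in the lines and not in ESC, so that the filter fixed their side. The median was 1.03 over the 15, 0.25 over the 6 that reached FPKM 1 on both sides and 0.70 over all 20. Col1a1, a chain of type I collagen, had 16.7 and 17.0 in the lines and 1.36 in ESC (2.92 ± 0.32 SE, adjusted p = 0.0271). Lox, the collagen cross-linking enzyme, had 15.6 and 18.7 against 0.860, Col1a2 had 7.21 and 9.74 against 0.819, and Postn, the matrix protein periostin, had 3.9995 and 5.4988 against 0.267. The fifth was S100a4. Vim had 82.9 and 88.4 in the lines and 219 in ESC (adjusted p = 0.111), and with it the list's sum was 256 and 268 in the lines, 323 in ESC and 178 to 193 in the NSC-CiPSC lines. Lum, a stromal proteoglycan, was at 0.10035 and 0.04998 in the lines and listed at 0 in ESC. The 5 calls became 1 without NSC-CiPSC line 2, 2 without NSC-CiPSC line 3, and 0 without either IEC-CiPSC line.

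Smooth muscle markers had no call among 8 compared, though all 8 had an unadjusted p under 0.05, and without NSC-CiPSC line 1, 4 were called higher. Of the 8, 3 reached FPKM 1 in the lines and not in ESC. The list had a median of 1.23 and sums of 89.3 and 103 in the lines against 25.5 in ESC. The sums in NSC-CiPSC lines 1, 2 and 3 were 128, 82.2 and 72.0, also above ESC. Acta2, smooth muscle actin, had 27.2 and 34.3 in the lines and 2.60 in ESC (adjusted p = 0.0513), and Tagln 28.6 and 32.1 against 2.62 (adjusted p = 0.0694). Intestinal markers in the lines summed to 31.2 and 33.5, against 33.5 in ESC, and 12 entries of that list were at 0 in each line. None of the 3 intestinal markers compared was called or reached an unadjusted p under 0.05. Trophoblast markers had 1 call of 6, Gata2, at 7.78 and 6.11 in the lines against 0.512 in ESC (2.39 ± 0.21 SE, adjusted p = 0.0184). Of the 6, 2 reached FPKM 1 in the lines only, Gata2 among them, and 1 in ESC only, so that the filter fixed their side. Extraembryonic endoderm markers had 1 call of 10, Sparc, a matricellular protein also made by fibroblasts, at 229 and 208 against 82.7. Liver and pancreas markers had 1 call of 4, Apoa2, lost without NSC-CiPSC line 3 or either IEC-CiPSC line, and none of 7 Hox genes was called, while 4 had an unadjusted p under 0.05. Of the 4 liver and pancreas markers, 2 reached FPKM 1 in the lines only, Apoa2 among them, and 1 in ESC only. Of the 7 Hox genes, 4 reached it in ESC only and 1 in the lines only. The filter fixed the side of these genes. What part residual or feeder cells have in these marker levels was not tested.

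Chromosome 8 stood apart from the other autosomes. The median difference of its 580 coding genes was -0.29 for line 10 and -0.34 for line 13, and 68.1% of them were lower than ESC in both lines, against 43.8% of all coding genes compared. The other autosomes had medians over the lines between -0.04 (chromosome 11) and 0.12 (chromosome 6). Among the 453 chromosome 8 genes with FPKM of at least 5 the median was -0.32, a ratio of 0.801 to ESC. In 20-Mb windows, the median ran from -0.08 to -0.42 in line 10 and from -0.12 to -0.47 in line 13, and each window was below 0 in both. NSC-CiPSC lines 1, 2 and 3 had chromosome 8 medians of -0.27, -0.22 and -0.26 against the same ESC library, and IEC-CiPSC minus NSC-CiPSC had a median of -0.05. Since all 5 lines are set against 1 ESC library, the side that differs cannot be told apart.

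**Figure D5:**
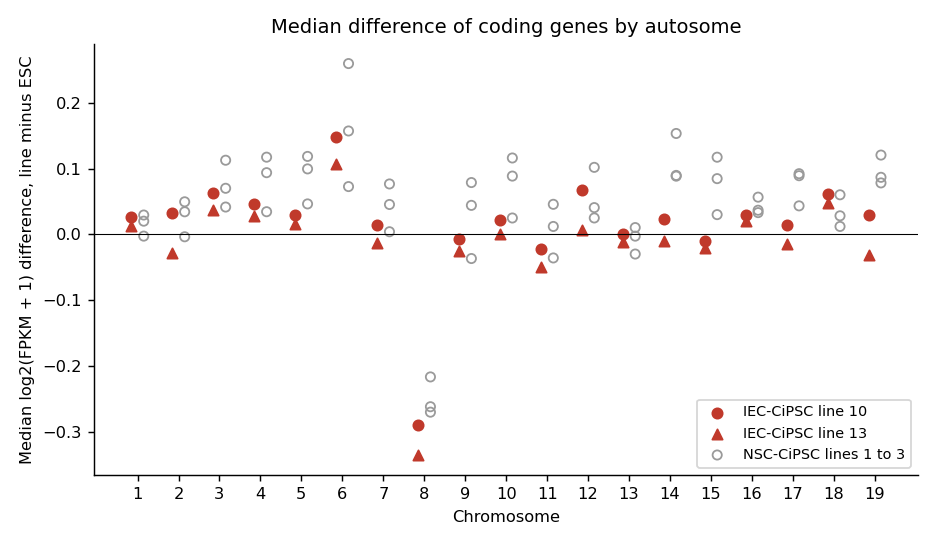
The x axis gives the autosomes and the y axis the median difference from ESC of their coding genes on log2(FPKM + 1). Red marks are IEC-CiPSC lines 10 and 13 and open circles the 3 NSC-CiPSC lines. On chromosome 8 the red marks lie at -0.29 and -0.34, below those of the other autosomes.

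On chromosome 8, 16 of the 580 coding genes compared were called lower and 2 higher. Over all coding genes compared the shares were 1.28% lower and 1.21% higher. The differences below are not corrected for the median of the whole chromosome. Triml1 and Triml2, TRIM-like genes transcribed in early embryos, are neighbours at chr8:43129807-43193881 and both fell. Triml2 had 35.1 and 33.9 in the lines and 105 in ESC (-1.58 ± 0.19 SE, adjusted p = 0.0339), and Triml1 had 14.6 and 15.5 against 48.0 (-1.61 ± 0.22 SE, adjusted p = 0.0435). Zfp42 lies next to them, at chr8:43295068-43307009. In NSC-CiPSC lines Triml2 ranged from 29.6 to 38.6 and Triml1 from 12.1 to 17.0. Gab1, a docking protein of receptor kinases, had 39.1 and 40.5 in the lines against 91.3 in ESC, and Pnpla6, a phospholipase, had 11.4 and 11.0 against 30.4. Both were called lower.

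Some called members had a called neighbour. Within 100 kb and in the same direction, 22 of the 138 called higher fell into 10 runs and 20 of the 146 called lower into 9 runs. The share for genes picked without regard to calls was not computed, so these counts are a description. Some runs hold near-identical copies that may share reads. Beside those above, Gstp1 and Gstp2, glutathione transferases on chromosome 19, rose together, at 323 and 328 in the lines against 159 in ESC for Gstp1 and 288 and 317 against 80.4 for Gstp2. Their sequences are alike, so the split of reads between them is uncertain. Ube2l6 and Smtnl1, a smoothelin-like muscle gene, share a run on chromosome 2, with Smtnl1 at 25.3 and 27.4 in the lines and 2.57 in ESC. E2f2, a cell cycle transcription factor, and Tcea3, an elongation factor gene, form a run that fell on chromosome 4, with Tcea3 at 25.6 and 24.4 against 69.9.

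The difference between the 2 origins of CiPSC lines was tested directly, since both share the ESC library. IEC-CiPSC against NSC-CiPSC gave 470 genes called higher (2.76%) and 265 lower (1.56%) of 17011, and among the members 248 higher and 170 lower. Cd3d was 4.79 ± 0.13 (SE) higher in IEC-CiPSC (adjusted p = 0.00153) and H2-Eb1 4.22 ± 0.26 higher (adjusted p = 0.00786). Apoa2, Ube2l6, Pdpn, Lefty1, Ifitm3, Olig1, Rpl10l, Triml1, Triml2 and Zfp42 were not called between the origins. Lefty1 had 30.27 and 34.01 in IEC-CiPSC lines and 37.9 to 59.8 in NSC-CiPSC lines. Tfcp2l1 was 1.69 ± 0.26 higher in IEC-CiPSC (adjusted p = 0.0363). Zscan4f was lower, with a difference of -1.999 ± 0.23 (adjusted p = 0.0231), as was Ece1, with -4.21 ± 0.35 (adjusted p = 0.0139). Without NSC-CiPSC line 3 the member counts were 37 higher and 8 lower, without NSC-CiPSC line 2 they were 104 and 62, without IEC-CiPSC line 10 they were 27 and 7, and without line 13 they were 19 and 2.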

How the data were processed

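Levels are FPKM as deposited by the authors, who used TopHat and Cufflinks with mm10 per the submitters' processing notes. The labels give RNeasy Plus Mini extraction of total RNA and NEBNext Ultra library kits. Versions, annotation release, strand and poly(A) selection are not given in the sources used here. Biotypes came from GENCODE M21 (37537 of 39009 entries matched). Entries marked LOWDATA (428) or FAIL (19) were left out, and 24 selenoprotein genes, inflated in these files, are not described.

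Entries reaching FPKM 1 in any of 8 libraries were fitted on log2(FPKM + 1) with limma 3.58.1 in R 4.3.3: 1 mean per group (5 groups), trend, 3 residual and 1.10 prior degrees of freedom. The fit was tested on simulated data. Precision of a level is that of its interval, which is taken within 1 library and covers no spread between libraries.

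Members and lists (33 lists, 618 genes, 609 matched) were chosen with earlier results of these data known, so list counts are no independent evidence. Named by rule are, of called members whose higher group averaged FPKM 10 or more, the 12 that rose most and the 12 that fell most, up to 4 called members per list (with none called, up to 2), identity genes, and 4 genes of the autosome farthest from the rest. Some of these are not printed. H2-Eb2, H2-Ab1, H2-K1, Dppa5a, Cd3e, Zscan4b, Nodal, Ptprc, Vim, Lum, Postn, further histone copies, Gstp1, Gstp2, Smtnl1, E2f2 and Tcea3 were picked after their values were seen. Reads of Rpl10l and of Gstp, H2A and Zscan4 genes may be split among near-identical copies. Alternatives were other pseudocounts, filters, scalings, library sets and lines left out. Upstream sequences are RefSeq's (GRCm38.p6), aligned with Biopython 1.88. Other work used Python 3.11.15 with pandas 2.3.3 and NumPy 2.4.6, and plots were drawn by matplotlib 3.10.9.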

Additional observations from a re-analysis of the deposited data

Results flagged for a closer look

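The 24 leading genes were examined for a called difference between IEC-CiPSC and NSC-CiPSC lines, by the same limma fit with Benjamini-Hochberg adjustment. The 24 were chosen for the difference of the same IEC-CiPSC lines from ESC, so their number is a description of genes so chosen. The call was made in 17. The difference, IEC-CiPSC minus NSC-CiPSC on log2(FPKM + 1), was 4.79 for Cd3d, 4.42 for Cd3g, 4.22 for H2-Eb1, 3.87 for Msln, 3.70 for Stk33, 3.36 for Ubd, 3.20 for AA467197, 3.14 for S100a4 and 1.36 for Lefty2. In each of these genes both IEC-CiPSC lines lay above all 3 NSC-CiPSC lines.

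Among the falls it was -4.21 for Ece1, -1.999 for Zscan4f, -1.80 for Zscan4d, -1.80 for Zscan4c, -1.68 for Zscan4e, -1.54 for Hist1h2af, -1.16 for Hist1h2ad and -1.06 for Hist1h2ah. Here both IEC-CiPSC lines lay below all 3 NSC-CiPSC lines. Adjusted p-values over the 17 genes ran from 0.00153 (Cd3d) to 0.0482 (Lefty2).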

How the results depend on the processing

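No paired analysis was possible because the groups compared share no replicate number. Counts of members called depended most on the lines that set the spread. Against ESC, 138 were called higher and 146 lower; leaving out 1 line gave 13 to 303 higher and 20 to 245 lower, and the 3 libraries alone gave 6 and 14. With a pseudocount of 5 the counts were 79 and 70. Against NSC-CiPSC, 248 were called higher and 170 lower, leaving out 1 line gave 19 to 244 and 2 to 209, and a pseudocount of 5 gave 104 and 66. The median of chromosome 8 moved to -0.35 with a pseudocount of 0.1. The cause of these changes was not tested. Each run without a line also has fewer degrees of freedom. No leading gene or chromosome 8 median changed direction under any alternative run. The balance of calls against ESC did change. Lower calls outnumbered higher ones in the main run, and higher calls outnumbered lower ones in others, such as that with a pseudocount of 5. Of the list medians 4 changed sign: metallothionein genes (-0.21) were at 0.10 with a pseudocount of 5, 0.49 with FPKM of at least 5 and 0.05 without IEC-CiPSC line 13; epithelial genes (-0.04) at 0.14 with FPKM of at least 5 and 0.21 without line 13; BMP and Id genes (0.04) at -0.06 without line 13; liver and pancreas markers (0.12) at -0.01 with a pseudocount of 5 and -0.04 without line 13. Of 24 leading genes, all stayed called under quantile normalization, median ratio scaling, the 6 pluripotent libraries alone, no trend and both filters, 18 with a pseudocount of 0.1, 21 when adjusted over the autosomal genes compared, and 4 without IEC-CiPSC line 10 or line 13. Of the same 24 leading genes, 23 stayed called with a pseudocount of 5 and 23 without NSC-CiPSC line 1. The number was 17 without NSC-CiPSC line 2, 9 without NSC-CiPSC line 3 and 6 with the 3 libraries alone. With ESC as 1 library, its levels have no replicate check.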
